A study of Homo sapiens with 26 samples.

Results

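CDK19KO is HCT116, a human colorectal carcinoma cell line, edited by CRISPR to knock out CDK19, and it was sequenced as the sublines CDK19KO-C1 and CDK19KO-C2. These sublines make up 6 of the 26 RNA-seq samples of the study, 3 libraries each, and were chosen by their labels together with the 3 libraries of HCT116 control cells. None of these 9 samples received JQ1, the BET bromodomain inhibitor used elsewhere in the study. The comparison asked which genes changed in the same direction in both sublines. The labels do not give the edited site, the guides, what the control cells carried, or whether a subline is 1 clone. Cells labelled as CDK8 knockouts (CDK8KO, 6 libraries) and as double knockouts (DKO, labelled CDK8/19 KO, 6 libraries) without JQ1, each of sublines C1 and C2, are given beside them where they show where CDK19KO differs.

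Mediator is the large complex that carries signals from transcription factors on enhancers and promoters to RNA polymerase II. A separable kinase module, made of cyclin C, MED12, MED13 and a kinase, docks onto it and can block the polymerase or phosphorylate factors bound nearby. Vertebrates have paired genes for most of this module, and CDK8 and CDK19 are alternative, closely related kinases of it. In colorectal cancer cells CDK8 is known as a co-activator of Wnt and stress-induced transcription, while CDK19 is less studied.

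The 9 libraries held 17700864 to 18958445 gene counts each, and 23565 to 24939 genes had at least 1 count. Markers of colon epithelial lines summed to 3945 to 4513 CPM in control, to 5042 to 5292 in the CDK19KO-C1 libraries and to 4968 to 5099 in those of CDK19KO-C2. CPM is the usual depth-scaled unit of counts, here with library sizes scaled by edgeR's TMM method. KRT8 alone had a control mean of 2224 CPM. VIL1 was at 0 in control, and VIL1, CDH17 and LGALS4 had means of at most 0.130 CPM in control and in each subline. The 7 fibroblast markers summed to at most 20.3 CPM in any library, with DCN, FAP and LUM at 0 in all, and the leukocyte and endothelial markers to at most 1.38 CPM and 0.749 CPM. RNA spike-ins (ERCC) took 1.04% to 1.24% of counts in control and 2.93% to 4.36% in CDK19KO, although only the control and DKO samples carry a spike-in label. With library factors taken from the spike-ins, the median of all genes' log2 changes against control shifted by -1.76 in CDK19KO-C1 and by -1.54 in CDK19KO-C2. All rises and falls below are therefore relative to the median gene. A difference between batches of libraries and an effect of the knockout cannot be told apart in any comparison with control, whereas CDK19KO against CDK8KO does not cross the spike-in label. In bulk RNA, fewer cells expressing a gene and less RNA per cell cannot be told apart. The labels do not say whether replicates are separate cultures, so p-values measure the spread between these libraries.

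Of 17198 genes with enough counts to test, 7391 (43.0%) were called in the mean of the sublines against control at an adjusted p under 0.05 in edgeR's quasi-likelihood test, 3612 higher and 3779 lower; with spike-in factors 34 were higher and 16821 lower. CDK19KO-C1 alone gave 7926 calls (46.1%) and CDK19KO-C2 alone 7293 (42.4%). In both sublines and in the same direction, 1543 genes were higher (8.97%) and 1591 lower (9.25%), 3134 in all (18.2%). In the mean of the sublines 664 genes (3.86%) were called with a change of at least 2-fold. Of the genes called in both, 68 genes (0.395%) were at least 2-fold higher in each subline and 171 (0.994%) at least 2-fold lower. Another 1150 genes (6.69%) were called in both sublines in opposite directions. The sublines also differed from each other directly, with 8247 genes called (48.0%), which include 1229 of the genes changed in the same direction (7.15% of the genes tested). Below, a pair of changes in a sentence is the log2 fold change against control in CDK19KO-C1 and then in CDK19KO-C2, with its SE after ± where given. The calls in both sublines rest on the same 3 control libraries, as do those of CDK8KO (40.5% of genes called) and DKO (61.6%) given beside them. Setting shared genes against CDK8KO reuses the CDK19KO libraries that chose them, so a same-direction difference is partly built in. Over all shared genes, 901 of 1543 rises and 933 of 1591 falls differed from CDK8KO in the same direction. That contrast takes the mean of the CDK19KO sublines, so 1 subline can carry it. Counts of list members are to be read beside the shares above, 8.97% higher, 9.25% lower and 6.69% opposite.

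**Figure D1:**
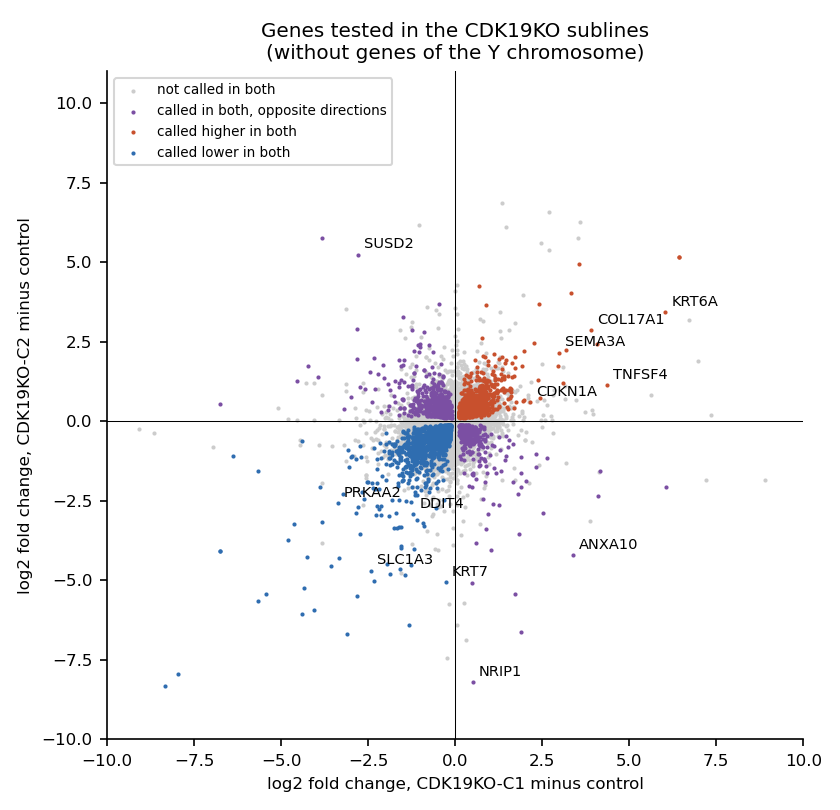
Log2 fold change of each gene tested against control in CDK19KO-C1 (x axis) and CDK19KO-C2 (y axis), 3 libraries per group, with genes of the Y chromosome left out. Orange and blue points are called in both sublines in 1 direction, purple points in opposite directions, of which there are 1150; the fold changes are relative to the median gene, and spike-in factors would move the points by -1.76 along the x axis and -1.54 along the y axis.

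The targeted gene was examined first. CDK19 (ENSG00000155111, chromosome 6, 110609978 to 110815958 of hg38) was at 29.9, 24.4 and 27.4 CPM in the control libraries, 20.3, 18.8 and 17.5 in those of CDK19KO-C1 and 26.9, 23.8 and 25.4 in those of CDK19KO-C2. Each CDK19KO-C1 library lay below each control library, while the CDK19KO-C2 libraries overlapped control. The log2 fold change was -0.53 ± 0.0784 (adjusted p = 7.46e-07, edgeR) in CDK19KO-C1 and -0.10 ± 0.0752 (adjusted p = 0.279) in CDK19KO-C2. The difference between sublines was itself called, at -0.43 ± 0.0793 (adjusted p = 2.67e-05). An edited gene can still give RNA that is counted, so the RNA level checks neither label.

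The partners of the kinase in its module changed unevenly. MED13L, a paralog of the subunit that tethers the module to Mediator, was at 209.8, 227 and 215 CPM in the control libraries, 158, 143 and 132 in those of CDK19KO-C1 and 177, 176 and 179.5 in those of CDK19KO-C2. All 6 knockout libraries lay below control, and the fall was called in both sublines (-0.59 ± 0.0577 and -0.29 ± 0.0571, adjusted p = 1.12e-10 and 7.99e-05). MED12, which activates the kinase, fell as well (-0.42 ± 0.0642 and -0.24 ± 0.0633). Both were also lower than in CDK8KO (-0.54 ± 0.0405, adjusted p = 6.63e-14, and -0.26 ± 0.0454, adjusted p = 1.23e-05). CDK8 itself stood at 0.12 ± 0.0541 and 0.15 ± 0.054 against control, called in CDK19KO-C2 only (adjusted p = 0.0753 and 0.0218), and CCNC, the cyclin, at 0.13 ± 0.0552 and 0.14 ± 0.0552 (adjusted p = 0.0531 and 0.0454). The call for CDK8 in the mean of the sublines (adjusted p = 0.0196) was lost without control replicate 1 or 2 (adjusted p = 0.0771 and 0.0676), and the call for CCNC (adjusted p = 0.0241) without CDK19KO-C1 replicate 2 or any single control library (highest adjusted p = 0.0827). MED12L and MED13 were not called in both sublines, with -0.28 ± 0.129 and -0.02 ± 0.124 for MED12L and -0.08 ± 0.0623 and 0.19 ± 0.0619 for MED13. Of 26 tested subunits of core Mediator, 2 rose in both sublines, 1 fell and 2 moved in opposite directions, beside 8.97%, 9.25% and 6.69% of all genes. With spike-in factors both rises turned into falls. The subunits that rose were MED25 (0.68 ± 0.0694 and 0.26 ± 0.0705) and MED15 (0.24 ± 0.0701 and 0.24 ± 0.0701), and MED8 fell (-0.25 ± 0.0715 and -0.35 ± 0.0721). None of these 3 was called as different from CDK8KO (adjusted p = 0.857, 0.953 and 0.256).

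The largest rises shared by both sublines included epithelial keratins, a hemidesmosome collagen, a guidance cue, an inhibitor of NF-kappaB and 3 neighbouring genes at the tip of the X chromosome. Ranked by the smaller of the subline fold changes, the 15 leading rises had a smaller log2 change of 1.16 to 3.43, and the highest adjusted p in the mean of the sublines was 1.07e-10. With spike-in factors 9 of the 15 had a mean log2 change below 0. In 14 of the 15 the mean of the sublines was also above CDK8KO, the exception being CRY1, as it was in 901 of the 1543 shared rises. Of the 15, 7 differed between the sublines.

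KRT6A (chromosome 12, 52487174 to 52493257), a keratin of stressed and wounded epithelium, was at 0, 0.219 and 0.107 CPM in the control libraries, 7.91, 6.8 and 7.57 in those of CDK19KO-C1 and 1.36, 1.4 and 0.918 in those of CDK19KO-C2. The control value rests on 6 counts in all, and 38.9% of the gene's 50-base words occur in other transcripts, so reads may be shared with its paralogs. COL17A1 (chromosome 10, 104031286 to 104085957), the transmembrane collagen of hemidesmosomes, was at 1.26, 1.64 and 1.23 CPM in the control libraries, 21.7, 20.3 and 19.3 in those of CDK19KO-C1 and 10.2, 10.2 and 9.88 in those of CDK19KO-C2. Every knockout library was several-fold above every control library, with log2 fold changes of 3.89 ± 0.137 and 2.87 ± 0.152 and a difference between sublines of 1.02 ± 0.0957 (adjusted p = 2.91e-11). KRT13, a keratin of stratified mucosa, rose by 3.10 ± 0.199 and 1.20 ± 0.258 on the log2 scale from a mean of 0.767 CPM. LAMA3, a chain of the laminin that hemidesmosomes hold on to, rose by 1.10 ± 0.105 and 0.87 ± 0.107, and against CDK8KO by 1.24 ± 0.0776 (adjusted p = 4.48e-16).

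SEMA3A (chromosome 7, 83955777 to 84492724), a secreted semaphorin that repels axons and endothelial cells through neuropilin, was at 12.1, 10.3 and 11.7 CPM in the control libraries, 92.4, 91.7 and 84.5 in those of CDK19KO-C1 and 48.7, 50.3 and 52.6 in those of CDK19KO-C2. The groups did not overlap, and CDK19KO-C1 exceeded CDK19KO-C2 (0.83 ± 0.0634, adjusted p = 1.45e-13). PODXL2, a sialomucin that binds selectins, was at 3.04, 2.41 and 2.57 CPM in the control libraries, 22.8, 26.2 and 24.6 in those of CDK19KO-C1 and 13.1, 13.8 and 11.3 in those of CDK19KO-C2. In CDK8KO it moved the other way (-2.08 ± 0.222 against control), so the single knockouts differed by 4.80 ± 0.13 (adjusted p = 2.89e-27). CAMK2D, a calcium/calmodulin-dependent kinase, was at 79.4, 80.7 and 76.1 CPM in the control libraries, 173, 183 and 170.4 in those of CDK19KO-C1 and 179, 179 and 173 in those of CDK19KO-C2. Its change was alike in size in the sublines (1.16 ± 0.0558 and 1.17 ± 0.0558), and it was lower than control in CDK8KO (-0.93 ± 0.0512), a difference between knockouts of 2.09 ± 0.0422 (adjusted p = 2.69e-31).

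CRY1, a repressor of the circadian clock, was at 13.5, 17.2 and 15.9 CPM in the control libraries, 36.6, 40.1 and 39.3 in those of CDK19KO-C1 and 41.8, 45.1 and 41.9 in those of CDK19KO-C2. It rose by 1.32 ± 0.0741 and 1.47 ± 0.0733 in the CDK19KO sublines and by 1.42 ± 0.0661 in CDK8KO, with a difference of -0.03 ± 0.0462 (adjusted p = 0.638). TNFAIP3, the ubiquitin-editing enzyme A20 that limits NF-kappaB signalling, was at 3.15, 2.58 and 2.94 CPM in the control libraries, 8.08, 8.08 and 6.79 in those of CDK19KO-C1 and 7.28, 7.13 and 7.29 in those of CDK19KO-C2. WNT3A, a secreted Wnt ligand, was at 3.72, 2.9 and 2.94 CPM in the control libraries, 7.19, 7.36 and 7.96 in those of CDK19KO-C1 and 8.58, 8.19 and 7.12 in those of CDK19KO-C2. For both genes all 6 knockout libraries lay above control and the sublines overlapped each other. SAMD5 (1.33 and 1.36), the organic anion transporter SLCO3A1 (2.37 and 1.29) and the transcription factor HES2 (1.20 and 1.17) completed the set. With spike-in factors the mean change of CRY1, TNFAIP3, WNT3A, CAMK2D, SAMD5 and HES2, and of the 3 genes of the X chromosome, was below 0.

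**Figure D2:**
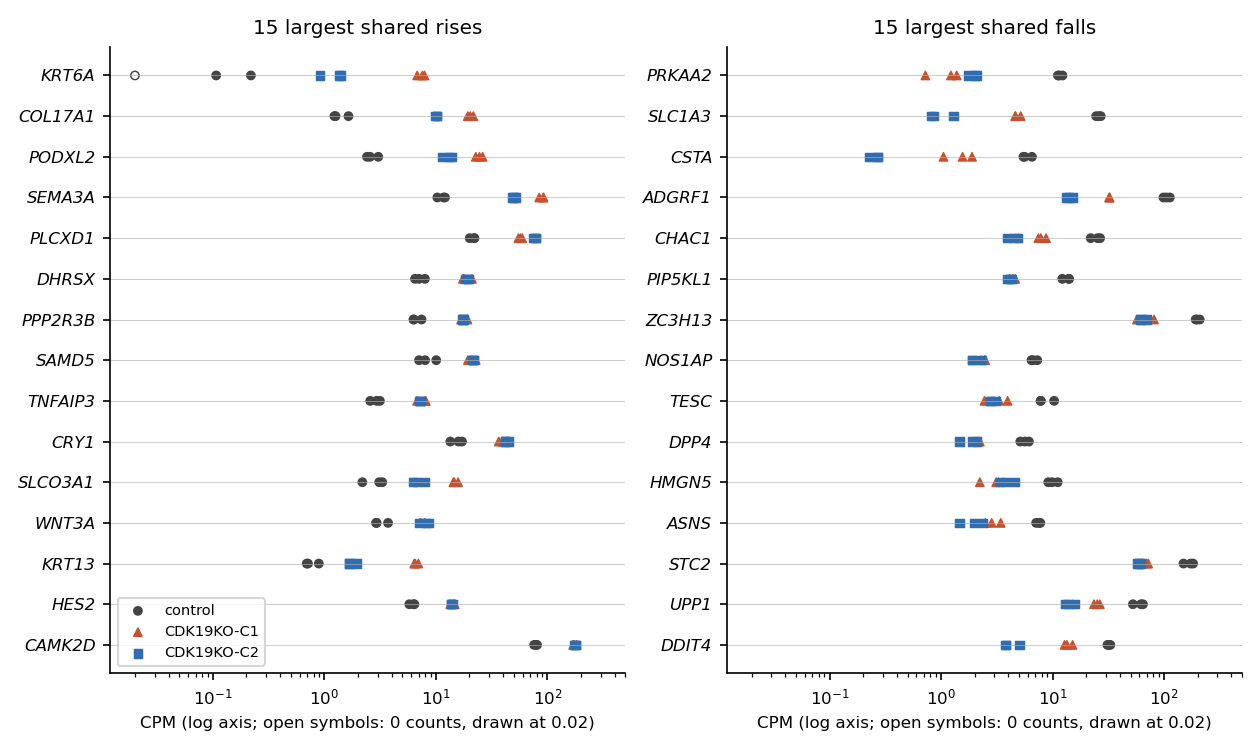
CPM in each of the 9 libraries (log axis) for the 15 largest shared rises (left) and falls (right), with control as circles, CDK19KO-C1 as triangles and CDK19KO-C2 as squares; an open symbol marks 0 counts. The knockout libraries of each gene all lie on 1 side of the control libraries, as the choice of these genes required; with spike-in factors 9 of the 15 rises and none of the falls change direction.

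PLCXD1, DHRSX and PPP2R3B, the remaining 3 of the leading rises, all lie in pseudoautosomal region 1, the stretch at the end of the short arm that the X and Y chromosomes share and exchange. PLCXD1 (chromosome X, 276322 to 303356) was at 22, 20.1 and 22.2 CPM in the control libraries, 59.5, 57.2 and 55 in those of CDK19KO-C1 and 78.1, 78.6 and 73.9 in those of CDK19KO-C2. DHRSX (chromosome X, 2219516 to 2502805) was at 6.5, 7.07 and 7.97 CPM in the control libraries, 17.5, 17.9 and 21.1 in those of CDK19KO-C1 and 18.3, 19.6 and 19.4 in those of CDK19KO-C2. PPP2R3B (chromosome X, 333963 to 386955), a regulatory subunit of protein phosphatase 2A, was at 6.29, 6.36 and 7.44 CPM in the control libraries, 17.5, 16.8 and 19.2 in those of CDK19KO-C1 and 17.7, 17.4 and 17.3 in those of CDK19KO-C2. The region was then looked at as a whole, a choice made after these values were seen, so its values are a description without a test. Of 14 tested genes of the region, 10 had a mean of at least 5 CPM in 1 or more groups, and all 10 were called higher in both sublines: these 3, GTPBP6, SLC25A6, ASMTL, AKAP17A, ZBED1, CD99P1 and CD99. Their median log2 change was 1.06 in CDK19KO-C1 and 0.999 in CDK19KO-C2, with 0.07 in CDK8KO and -0.08 in DKO. The other 382 genes of the X chromosome with at least 5 CPM had medians of -0.05 and 0.03, with 30 called higher and 60 lower in both sublines. On the spike-in scale the mean change of PLCXD1 was -0.02, that of DHRSX -0.25 and that of PPP2R3B -0.25.

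**Figure D3:**
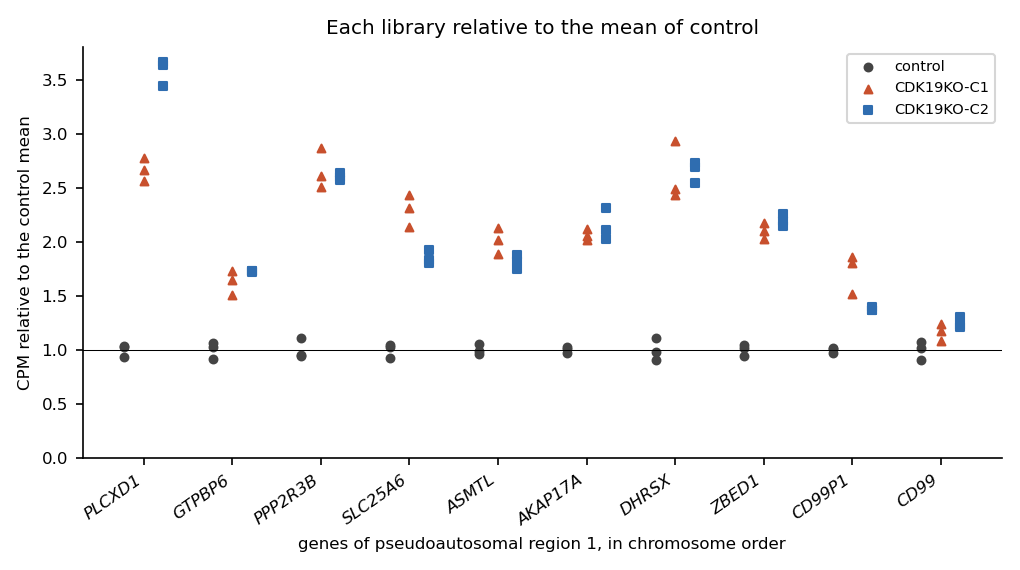
CPM of each library divided by the control mean (y axis, from 0) for the 10 genes of pseudoautosomal region 1 with at least 5 CPM, in chromosome order (x axis), with control as circles, CDK19KO-C1 as triangles and CDK19KO-C2 as squares. The knockout libraries lie above the control libraries in each gene, by the least in CD99 and by the most in PLCXD1; the values are relative to the median gene, and with spike-in factors the mean of the sublines lies below control in all 10 genes.

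The largest shared falls were led by an AMPK subunit and a glutamate transporter, and 4 of the 15 leading falls belong to the list of amino acid stress response genes described after them. The smaller log2 change ran from 1.21 to 2.57 in size, the highest adjusted p in the mean of the sublines was 1.85e-11, and no fall changed direction with spike-in factors. In 14 of the 15 the mean of the sublines was below CDK8KO as well, the exception being DPP4, as it was in 933 of the 1591 shared falls. Of the 15, 10 differed between the sublines.

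PRKAA2 (chromosome 1, 56645322 to 56715335), a catalytic subunit of the energy sensor AMPK, was at 11.5, 12.3 and 11.2 CPM in the control libraries, 1.38, 1.23 and 0.724 in those of CDK19KO-C1 and 2.01, 1.74 and 2.1 in those of CDK19KO-C2. Its log2 changes were -3.38 ± 0.166 and -2.57 ± 0.146, beside -0.90 ± 0.0984 in CDK8KO and 0.32 ± 0.0881 in DKO, and CDK19KO minus CDK8KO was -2.07 ± 0.126 (adjusted p = 2.17e-16). SLC1A3 (chromosome 5, 36606355 to 36688334), a glutamate and aspartate transporter, was at 24.6, 27 and 26.2 CPM in the control libraries, 4.65, 4.63 and 5.18 in those of CDK19KO-C1 and 0.815, 1.29 and 0.864 in those of CDK19KO-C2. The sublines did not overlap and differed by 2.28 ± 0.171 (adjusted p = 7.8e-14), while CDK8KO stood at 0.10 ± 0.0584 and DKO at 1.66 ± 0.055 against control. CSTA, an inhibitor of cysteine proteases in epithelium, was at 5.61, 5.48 and 6.53 CPM in the control libraries, 1.05, 1.89 and 1.56 in those of CDK19KO-C1 and 0.272, 0.225 and 0.27 in those of CDK19KO-C2. ADGRF1, an adhesion G protein-coupled receptor, was at 98.8, 113 and 105 CPM in the control libraries, 32.4, 32.2 and 32.4 in those of CDK19KO-C1 and 15.2, 14 and 13.2 in those of CDK19KO-C2. Both fell further in CDK19KO-C2 than in CDK19KO-C1, by 2.52 ± 0.326 and 1.20 ± 0.0716, and both also fell in CDK8KO (-2.03 ± 0.139 and -1.18 ± 0.0475).

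ZC3H13, a component of the complex that writes N6-methyladenosine on RNA, was at 192, 209 and 197 CPM in the control libraries, 81.3, 69.5 and 57.1 in those of CDK19KO-C1 and 60.7, 62 and 70.3 in those of CDK19KO-C2. The change was of like size in the sublines (-1.52 ± 0.0861 and -1.63 ± 0.0866), with -0.20 ± 0.0698 in CDK8KO and -0.14 ± 0.0699 in DKO. TESC, a calcium-binding regulator of a sodium/proton exchanger, was at 10.3, 7.84 and 7.81 CPM in the control libraries, 3.32, 2.45 and 3.95 in those of CDK19KO-C1 and 2.77, 3.09 and 2.75 in those of CDK19KO-C2. It was higher than control in CDK8KO (1.12 ± 0.1) and DKO (1.20 ± 0.0994), and CDK19KO minus CDK8KO was -2.62 ± 0.0976 (adjusted p = 6.01e-23). DPP4, a cell-surface peptidase, fell in CDK19KO (-1.37 ± 0.151 and -1.62 ± 0.156) and in CDK8KO (-1.51 ± 0.129), a difference of 0.01 ± 0.132 (adjusted p = 0.953). UPP1, a uridine-cleaving enzyme, was at 52.6, 62.1 and 64.7 CPM in the control libraries, 25.2, 23.5 and 26.5 in those of CDK19KO-C1 and 16, 13.9 and 13 in those of CDK19KO-C2. The nucleosome-binding protein HMGN5 (-1.81 and -1.36), PIP5KL1 (-1.61 and -1.70) and NOS1AP, an adaptor of nitric oxide synthase (-1.50 and -1.73), fell too. In each of the 15 genes all 6 knockout libraries lay below all 3 control libraries, as was the case for 2139 of the genes tested (12.4%).

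Genes of amino acid supply formed the broadest shared fall among the lists examined. When amino acids run short or unfolded proteins build up, kinases phosphorylate the initiation factor eIF2, the transcription factor ATF4 is translated, and it switches on amino acid transporters, synthetic enzymes and aminoacyl-tRNA synthetases, which charge tRNAs. Of 23 tested effectors of this integrated stress response, 17 fell in both sublines, 1 rose and 4 moved in opposite directions. With spike-in factors the rise changed direction and none of the 17 falls did. The mean change of each of the 4 opposite genes also turned below 0. Their median log2 change was -0.95 in CDK19KO-C1 and -0.92 in CDK19KO-C2, beside -0.03 and -0.01 over all genes tested; it was -0.50 in CDK8KO and -0.50 in DKO. In 14 of the 17 the level was lower than in CDK8KO.

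CHAC1, which degrades glutathione, was at 22, 26.7 and 25.4 CPM in the control libraries, 7.85, 7.47 and 8.74 in those of CDK19KO-C1 and 4.89, 4.55 and 3.89 in those of CDK19KO-C2. STC2, a secreted stress glycoprotein, was at 149, 182 and 173 CPM in the control libraries, 72.1, 70.0 and 66.6 in those of CDK19KO-C1 and 62.1, 59.9 and 57.8 in those of CDK19KO-C2. DDIT4, an inhibitor of mTORC1, was at 31.9, 31.1 and 33 CPM in the control libraries, 15.1, 12.8 and 13.5 in those of CDK19KO-C1 and 5.05, 3.82 and 3.78 in those of CDK19KO-C2, with CDK19KO-C2 lower than CDK19KO-C1 by 1.71 ± 0.106 (adjusted p = 3.45e-16). No knockout library of these genes reached a control library. For DDIT4, 41.2% of exon bases overlap another gene, so its level is uncertain. ASNS, asparagine synthetase, was at 7.6, 7.13 and 7.76 CPM in the control libraries, 3.43, 2.84 and 2.5 in those of CDK19KO-C1 and 1.47, 1.96 and 2.37 in those of CDK19KO-C2, and 81.7% of its words are shared with other transcripts, so its level is uncertain too. SLC7A11, the cystine importer, fell as well (-1.26 ± 0.0786 and -1.07 ± 0.0777). Named after its values were seen, ATF4 itself fell in CDK19KO (-0.47 ± 0.0512 and -0.66 ± 0.0513) and in CDK8KO (-0.47 ± 0.0435), with 23.9% of its words shared with other transcripts. The rise was in PPP1R15A, the phosphatase subunit that reverses eIF2 phosphorylation (0.30 ± 0.0646 and 0.35 ± 0.0643; -1.33 in the mean with spike-in factors). The 4 genes that moved oppositely, also named after their values were seen, were ATF3 (0.63 and -0.60), ATF5 (-0.17 and 0.27), GDF15 (1.06 and -0.76) and CTH (0.50 and -0.44).

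Serine is made from a glycolytic intermediate by PHGDH, PSAT1 and PSPH in turn, and feeds the folate cycle of the mitochondrion through MTHFD2. Of 17 tested enzymes of serine and one-carbon metabolism, 7 fell in both sublines, all 7 also below CDK8KO, and 2 rose, both of which fell with spike-in factors. Over the whole list the medians were -0.11 and -0.34, with -0.17 in CDK8KO and -0.18 in DKO. Called lower were 8 members in CDK19KO-C1, 12 in CDK19KO-C2 and 8 in CDK8KO, beside 24.0%, 20.6% and 21.0% of all genes. PHGDH was at 201, 199 and 216 CPM in the control libraries, 95.9, 98.8 and 98.5 in those of CDK19KO-C1 and 88.4, 82.5 and 79.1 in those of CDK19KO-C2. PSAT1 was at 493, 501 and 491 CPM in the control libraries, 221, 238 and 242 in those of CDK19KO-C1 and 206, 203 and 211 in those of CDK19KO-C2. The knockout libraries of both genes lay below control without overlap, with log2 changes of -1.07 ± 0.0499 and -1.30 ± 0.0504 for PHGDH and -1.08 ± 0.0527 and -1.26 ± 0.053 for PSAT1. PSPH (-0.45 ± 0.0513 and -0.56 ± 0.0516) and MTHFD2 (-0.41 ± 0.0589 and -0.61 ± 0.0591) fell too, though 33.2% of MTHFD2's exon bases overlap another gene. The rises were in TYMS (0.18 and 0.36), which makes thymidylate and has 46.6% of its exon bases in another gene, and SHMT1 (0.32 and 0.30), the cytosolic serine hydroxymethyltransferase.

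Among amino acid transporters, 10 of 22 tested members fell in both sublines, all 10 below CDK8KO too, and 1 rose. The list medians were -0.24 and -0.23, with -0.19 in CDK8KO and -0.13 in DKO. In CDK19KO-C1, CDK19KO-C2 and CDK8KO alike 12 members were called lower, beside 24.0%, 20.6% and 21.0% of all genes. Beside SLC1A3 and SLC7A11, the largest falls were in SLC6A9, a glycine transporter (-1.14 ± 0.0981 and -1.20 ± 0.0985), and SLC1A4, a transporter of alanine, serine and cysteine (-1.35 ± 0.09 and -0.80 ± 0.084). The rise was in SLC1A1, a glutamate transporter (0.71 ± 0.0884 and 1.12 ± 0.0849), whose mean change with spike-in factors was -0.74. Of 20 cytosolic aminoacyl-tRNA synthetases, 12 fell in both sublines and none rose, with medians of -0.37 and -0.45, -0.33 in CDK8KO and -0.42 in DKO. AARS, the alanyl-tRNA synthetase, was at 356, 355 and 358 CPM in the control libraries, 232, 226 and 222 in those of CDK19KO-C1 and 206, 205 and 201 in those of CDK19KO-C2. WARS, the tryptophanyl enzyme, was at 237, 245 and 253 CPM in the control libraries, 148, 161 and 165 in those of CDK19KO-C1 and 154, 151 and 145 in those of CDK19KO-C2. Neither overlapped control in any library. GARS and EPRS, which charge glycine and both glutamate and proline, fell as well (-0.53 and -0.74 for GARS, -0.54 and -0.73 for EPRS). Of the 12, 9 were lower than in CDK8KO.

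**Figure D4:**
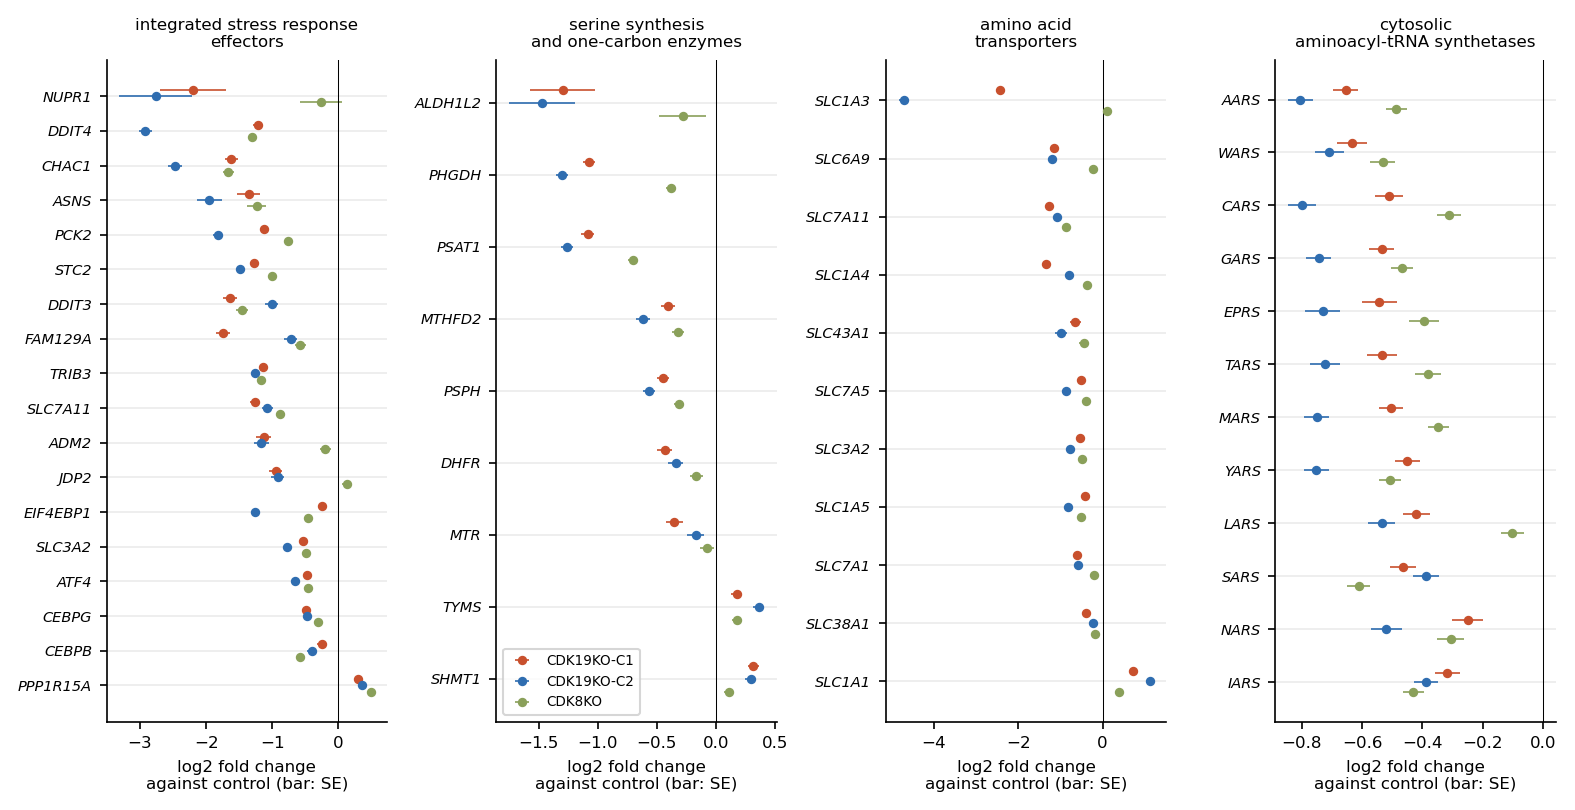
Log2 fold change against control (x axis, point and SE) of the genes of 4 amino acid lists called in both CDK19KO sublines in 1 direction (y axis), with CDK19KO-C1 in orange, CDK19KO-C2 in blue and CDK8KO in green. In the tRNA synthetase panel every point lies left of 0, as do 17 of 18 stress response genes for both sublines; with spike-in factors the rises shown (PPP1R15A, TYMS, SHMT1 and SLC1A1) change direction and no fall does.

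These genes are shown with the sequence that ATF4 dimers are known to bind, the C/EBP-ATF response element, because ATF4 is known to act through it on genes of amino acid supply. In the RefSeq promoters of assembly GRCh38.p14, from 250 bases before to 50 after the start of a gene, the element was searched on both strands as TGATGNAA, where N is any base. It was present in 188 of 11315 promoters of tested genes (1.66%) and in 1003 of all 27305 promoters (3.67%). Of the tRNA synthetase genes that fell, 10 had a promoter in the table and 6 of those held it, as did 4 of 9 amino acid transporters that fell, 3 of 14 stress response effectors and 0 of 4 serine and one-carbon enzymes. Over all tested members with a promoter, fallen or not, 6 of 16 synthetases and 4 of 19 transporters held it. So did 4 of 20 effectors and 1 of 10 enzymes. The matches of the 12 genes that fell and held one are given 5′ to 3′ along the gene's strand with the bases around them, the match in capitals, which reads TTNCATCA where it lies on the other strand. The window is set by the RefSeq start, which for some genes, such as SLC1A3, is not the start of the gene span given above from the deposited table.
CHAC1: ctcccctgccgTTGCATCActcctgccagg (chr15:40953251-40953280, plus strand)
ASNS: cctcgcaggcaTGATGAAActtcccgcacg (chr7:97872458-97872487, minus strand)
SLC3A2: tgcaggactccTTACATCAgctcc (chr11:62881725-62881748, plus strand)
SLC7A1: gggcgcactgcTGATGAAAcctggcgccgg (chr13:29595663-29595692, minus strand)
SLC38A1: tcagacccgaaTGATGAAAagggatcagct (chr12:46266502-46266531, minus strand)
SLC1A3: caggaaatgacTGATGCAAagcagggttaa (chr5:36596357-36596386, plus strand)
AARS: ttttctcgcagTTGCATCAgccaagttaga (chr16:70289675-70289704, minus strand)
CARS: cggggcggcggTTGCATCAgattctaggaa (chr11:3057407-3057436, minus strand)
IARS: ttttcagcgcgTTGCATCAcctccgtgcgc (chr9:92293692-92293721, minus strand)
MARS: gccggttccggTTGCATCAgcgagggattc (chr12:57488053-57488082, plus strand)
TARS: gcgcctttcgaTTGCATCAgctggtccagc (chr5:33440956-33440985, plus strand)
NARS: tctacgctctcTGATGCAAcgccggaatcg (chr18:57621804-57621833, minus strand)
A match is only a description of the letters, and neither binding nor its part in these falls was tested. The transporters SLC3A2 (-0.53 and -0.78), SLC7A1 (-0.62 and -0.58) and SLC38A1 (-0.39 and -0.22) fell. Of the synthetases shown, the log2 changes not given above were -0.51 and -0.80 for CARS, -0.32 and -0.39 for IARS, -0.50 and -0.75 for MARS, -0.53 and -0.72 for TARS and -0.25 and -0.52 for NARS.

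The transcription factor p53 is a tumour suppressor that responds to DNA damage and is intact in HCT116. Of 31 tested targets of p53, 14 rose in both sublines and none fell, against 8.97% and 9.25% of all genes, and 3 moved in opposite directions; with spike-in factors all 14 lay below control. The median log2 change was 0.92 in CDK19KO-C1 and 0.19 in CDK19KO-C2, with 0.03 in CDK8KO and -0.12 in DKO. In the direct contrast of the sublines 29 of the 31 were higher in CDK19KO-C1 and none lower, beside 23.8% and 24.2% of all genes. All 14 shared rises were above CDK8KO as well.

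CDKN1A, the cyclin-dependent kinase inhibitor p21, was at 128, 112 and 116 CPM in the control libraries, 504, 512 and 566 in those of CDK19KO-C1 and 186, 176 and 177 in those of CDK19KO-C2. The 3 groups did not overlap, and the change was 2.15 ± 0.059 in CDK19KO-C1 and 0.60 ± 0.0587 in CDK19KO-C2. SERPINB5, the serpin maspin, was at 30.7, 27 and 26.1 CPM in the control libraries, 81.7, 85.2 and 81.7 in those of CDK19KO-C1 and 45.6, 46 and 46.2 in those of CDK19KO-C2. PHLDA3, an inhibitor of AKT, was at 19.2, 19.8 and 19.3 CPM in the control libraries, 52.9, 55.6 and 58.6 in those of CDK19KO-C1 and 34.1, 31.4 and 28.7 in those of CDK19KO-C2, with 19.4% of its words and 19.1% of its exon bases shared with other genes. ZMAT3, an RNA-binding protein, rose by 1.03 ± 0.0719 and 0.62 ± 0.0734. In each of these 4 genes the order was control, CDK19KO-C2, CDK19KO-C1 from low to high, and the sublines differed by 1.55 ± 0.0574, 0.85 ± 0.0563, 0.83 ± 0.0727 and 0.42 ± 0.0689 (highest adjusted p = 4.37e-06). On the spike-in scale their mean changes were -0.28, -0.51, -0.55 and -0.82.

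Of 20 tested G1 cyclins, kinases and inhibitors, 4 rose in both sublines (E2F1 at 0.35 and 0.51, CDKN2D at 0.37 and 0.75, CDKN1A as above, and CDK2) and RBL2, a pocket protein of the retinoblastoma family, fell (-0.59 ± 0.0747 and -0.52 ± 0.074); the 4 rises turned into falls with spike-in factors. Among 30 genes of DNA replication, 4 rose and 2 fell, beside 8.97% and 9.25% of all genes, and the rises again turned with spike-in factors. MCM7, a helicase subunit, stood at 0.40 and 0.24, the polymerase subunit POLA1 at -0.50 and -0.20 and GINS2 at -0.24 and -0.24. Of 28 mitotic genes, 1 rose and 1 fell in both sublines while 11 moved in opposite directions. Of the 28, 23 were lower in CDK19KO-C1 than in CDK19KO-C2 and none higher, beside 24.2% and 23.8% of all genes. Their medians were -0.20 and 0.24. Of 15 BCL2 family genes, BAD, a pro-apoptotic member, rose (0.80 ± 0.0908 and 0.62 ± 0.0922; -0.95 in the mean with spike-in factors; 23.7% of exon bases in another gene) and none fell in both sublines.

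Interferons induce sensors of viral RNA, restriction factors and the machinery that loads peptides on MHC class I. Of 25 tested interferon response genes, 9 rose in both sublines, none fell and 2 moved oppositely. Medians were 0.31 and 0.45, with -0.04 in CDK8KO and 0.44 in DKO. With spike-in factors 8 of the 9 rises lay below control. SAMD9, an antiviral restriction factor, was at 15.4, 11.9 and 12.8 CPM in the control libraries, 23.8, 24.2 and 20.3 in those of CDK19KO-C1 and 29.4, 24.1 and 25.6 in those of CDK19KO-C2. IFIH1, the RNA sensor MDA5, was at 7.13, 4.93 and 5.99 CPM in the control libraries, 9.46, 9.42 and 9.13 in those of CDK19KO-C1 and 8.26, 8.92 and 9.18 in those of CDK19KO-C2. IFIH1 fell in CDK8KO (-1.13 ± 0.135), and CDK19KO exceeded CDK8KO by 1.71 ± 0.106 (adjusted p = 3.65e-16). USP18 (0.58 and 0.48), a negative regulator of interferon signalling of which 23.1% of words are shared, and HERC6 (0.36 and 0.42), an E3 ligase, also rose.

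Of 16 tested genes of MHC class I presentation, 7 rose in both sublines and none fell, all 7 below control with spike-in factors. Medians were 0.28 and 0.34, with 0.16 in CDK8KO and a larger 0.61 in DKO, where 14 were called higher (29.5% of all genes were). In CDK8KO 7 were called higher (19.5% of all genes were), and 3 of the 7 shared rises were above CDK8KO. TAP1, the peptide transporter, was at 25.5, 26.2 and 25.9 CPM in the control libraries, 37.8, 37.4 and 40.02 in those of CDK19KO-C1 and 38.2, 35.6 and 35.6 in those of CDK19KO-C2. NLRC5, the transactivator of the MHC class I genes, was at 5.87, 6.91 and 6.21 CPM in the control libraries, 9.85, 8.64 and 8.96 in those of CDK19KO-C1 and 11.1, 10.4 and 11.3 in those of CDK19KO-C2. Both were above CDK8KO (0.56 ± 0.0495 and 0.72 ± 0.0874). HLA-E rose by 0.38 ± 0.0542 and 0.32 ± 0.0543, less than in CDK8KO (0.61 ± 0.0475; difference -0.26 ± 0.0375, adjusted p = 4.15e-07). Among 13 NF-kappaB targets and chemokines 5 rose and 2 fell, the rises below control with spike-in factors. Beside TNFAIP3 the rises with at least 5 CPM were the inhibitors NFKBIA (0.60 ± 0.0657 and 0.40 ± 0.0665) and NFKBIE (0.81 ± 0.092 and 0.41 ± 0.0955) and the subunit RELB (0.48 ± 0.119 and 0.57 ± 0.117).

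The TNF superfamily had 7 of 18 tested members higher and 1 lower in both sublines, and 6 of the 7 lay below control with spike-in factors. TNFSF4, the OX40 ligand, was at 2.88, 2.36 and 2.19 CPM in the control libraries, 45.9, 51.8 and 54.5 in those of CDK19KO-C1 and 4.78, 5.78 and 5.67 in those of CDK19KO-C2. Its rise was far larger in CDK19KO-C1 than in CDK19KO-C2 (3.23 ± 0.0934, adjusted p = 2.91e-26). TNFSF9, the 4-1BB ligand, rose by 1.69 ± 0.0694 and 0.41 ± 0.0756, and TNFRSF10D, a decoy receptor for TRAIL, by 0.71 ± 0.0516 and 0.90 ± 0.0513. TNFRSF10C, another decoy receptor, rose too (1.75 and 0.58), with 38.3% of its words shared with paralogs. Beside these immune lists, the 7 leukocyte markers summed to 0.374 to 0.493 CPM in control, to 0.501 to 1.38 in the CDK19KO-C1 libraries and to 0.617 to 0.756 in those of CDK19KO-C2. Group means in control, CDK19KO-C1 and CDK19KO-C2 were 0.0350, 0 and 0 CPM for PTPRC, the leukocyte common antigen, 0.0900, 0.204 and 0.147 CPM for CD14 and 0.0358, 0.296 and 0.346 CPM for LYZ, which mark monocytes and macrophages. Their part in these lists was not tested.

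Keratins and matrix genes changed in both directions. Of 17 tested keratins, 5 rose in both sublines, 1 fell and 3 moved oppositely, and with spike-in factors 2 of the 5 rises, KRT8 and KRT19, lay below control. KRT7, a simple-epithelium keratin, was at 33.4, 56.6 and 50.4 CPM in the control libraries, 35.5, 39 and 41.1 in those of CDK19KO-C1 and 0.815, 1.57 and 1.78 in those of CDK19KO-C2, so its fall in CDK19KO-C1 (-0.28 ± 0.107, adjusted p = 0.0306) was small beside that in CDK19KO-C2 (-5.07 ± 0.181). KRT8, with 22.7% of words shared, stood at 0.35 ± 0.0536 and 0.35 ± 0.0536, and KRT19 at 0.48 ± 0.0478 and 0.21 ± 0.0478. Of the 9 genes of hemidesmosomes and their laminin, COL17A1 and LAMA3 rose in both sublines (LAMA3 turning with spike-in factors), and 5 others were lower in CDK19KO-C1 and higher in CDK19KO-C2. Collagens and matrix glycoproteins split into 3 rises, 3 falls and 8 opposite changes of 27, beside 8.97%, 9.25% and 6.69% of all genes. The rises and falls were thus near those shares. The falls were laminin and perlecan genes of basement membrane, LAMC1 (-0.71 ± 0.0596 and -0.58 ± 0.0592), LAMA5 (-0.59 ± 0.0676 and -0.42 ± 0.0673) and HSPG2 (-0.68 ± 0.08 and -0.47 ± 0.0785), each also below CDK8KO (-0.50, -0.61 and -0.60). AGRN, a heparan sulfate proteoglycan, rose (0.40 ± 0.0662 and 0.70 ± 0.0659; -1.10 with spike-in factors).

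Semaphorins, neuropilins and plexins had 8 of 26 tested members higher in both sublines and none lower. Of the 8, 7 (all but SEMA3A) lay below control with spike-in factors, and 3 were above CDK8KO. List medians were 0.13 and 0.21, with 0.27 in CDK8KO and 0.31 in DKO. SEMA3C, a secreted semaphorin, was at 16.3, 18.1 and 16 CPM in the control libraries, 38.6, 39.9 and 33.8 in those of CDK19KO-C1 and 56.8, 54.3 and 56.8 in those of CDK19KO-C2. It was lower than control in CDK8KO (-0.90 ± 0.102), so the single knockouts differed by 2.35 ± 0.0759 (adjusted p = 6.75e-25). SEMA3F rose in CDK19KO (1.12 and 0.60) and more in CDK8KO (1.14 ± 0.0793; difference -0.28 ± 0.0581), and the receptor PLXNA1 rose by 0.31 ± 0.0537 and 0.58 ± 0.0534. Of 19 junction and mesenchymal genes, 2 fell in both sublines. DSP, desmoplakin of the desmosome, was at 342, 356 and 347 CPM in the control libraries, 195, 164 and 137 in those of CDK19KO-C1 and 279, 281 and 295 in those of CDK19KO-C2. TWIST1, a mesenchymal transcription factor named after its values were seen, had 0 counts in all 6 knockout libraries and a mean of 1.68 CPM in control. Taking 3 counts per library as the floor, at most 0.168 CPM, it was at least 9.96-fold lower, while CDK8KO stood at -0.04 ± 0.188 against control.

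**Figure D5:**
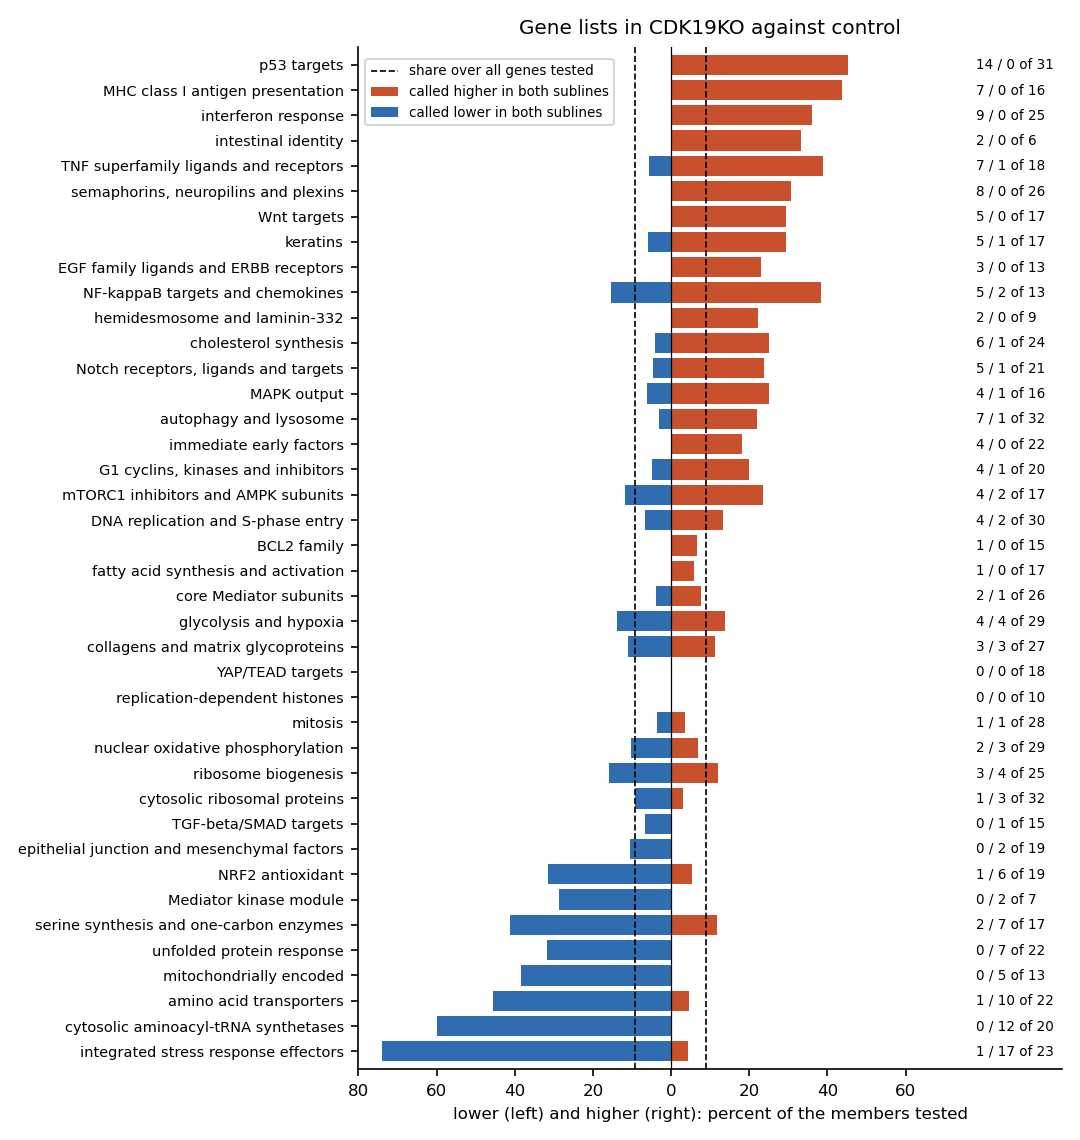
Share of the tested members of each gene list called higher (right, orange) or lower (left, blue) in both CDK19KO sublines (x axis, percent), with the counts at the right and dashed lines at the shares over all genes tested, 8.97% and 9.25%. The integrated stress response, tRNA synthetase and amino acid transporter lists reach furthest left and the p53 target and MHC class I lists furthest right; with spike-in factors all rises of the p53 and MHC class I lists turn into falls.

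Of 17 tested Wnt targets, 5 rose in both sublines, none fell and 7 moved in opposite directions, and the 5 rises lay below control with spike-in factors. DKK1, a secreted Wnt inhibitor, was at 103, 169.8 and 138 CPM in the control libraries, 298, 312 and 332.2 in those of CDK19KO-C1 and 261, 279 and 271 in those of CDK19KO-C2. It was above CDK8KO by 0.98 ± 0.0577 (adjusted p = 7.9e-17). BMP4 (0.18 and 0.89), EPHB3 (0.64 and 0.58) and ZNRF3 (0.28 and 0.18) rose less than in CDK8KO, with differences of -0.78 ± 0.035, -0.41 ± 0.0702 and -0.13 ± 0.0401 (highest adjusted p = 0.00811). KLF4, a factor of differentiated gut epithelium, was at 15.8, 19.7 and 18.8 CPM in the control libraries, 45.9, 46.9 and 49.5 in those of CDK19KO-C1 and 35.5, 34.3 and 33.7 in those of CDK19KO-C2, while CDK8KO was lower than control (-1.22 ± 0.0847; difference 2.38 ± 0.0652, adjusted p = 3.6e-27). KLF5, its counterpart in proliferating crypts, rose by 0.33 ± 0.0586 and 0.26 ± 0.0587; with spike-in factors KLF4 was at -0.50 and KLF5 at -1.36.

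Of the ligands of the EGF receptor family, AREG and EREG rose in both sublines. AREG, amphiregulin, was at 114, 147 and 131 CPM in the control libraries, 288, 310.1 and 324 in those of CDK19KO-C1 and 220.3, 227 and 215 in those of CDK19KO-C2. EREG, epiregulin, was at 933, 1090.4 and 953 CPM in the control libraries, 1257, 1232 and 1229.6 in those of CDK19KO-C1 and 1283, 1336 and 1358 in those of CDK19KO-C2. Against control CDK8KO stood at -1.67 ± 0.0587 and -1.11 ± 0.0565 and DKO at -2.84 ± 0.0624 and -2.47 ± 0.0569, and CDK19KO exceeded CDK8KO by 2.66 ± 0.0505 and 1.48 ± 0.0484 (adjusted p = 3.32e-32 and 1.07e-24). In all, 3 of 13 tested ligands and receptors rose in both sublines, ERBB2 being the third (0.28 and 0.20), none fell, and all 3 lay below control with spike-in factors. Of 16 genes of MAPK output, 4 rose, 1 fell and 5 moved oppositely. Of the 16, 14 were lower in CDK19KO-C1 than in CDK19KO-C2 (24.2% of all genes were). PHLDA1 was at 299.6, 301 and 289 CPM in the control libraries, 398, 421 and 407 in those of CDK19KO-C1 and 528, 518 and 536 in those of CDK19KO-C2, above CDK8KO by 1.08 ± 0.0343; EMP1 (0.31 and 0.62) and ETV4 (0.22 and 0.43) rose less than in CDK8KO, and ETV5 fell (-0.55 ± 0.0429 and -0.25 ± 0.0423); the 4 rises lay below control with spike-in factors.

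Among 22 immediate early factors 4 rose in both sublines and none fell, all 4 below control with spike-in factors: KLF4, NR4A2 (0.40 ± 0.0961 and 1.40 ± 0.0891), NR4A1 (0.41 ± 0.116 and 0.54 ± 0.114) and IER5 (0.82 ± 0.0647 and 0.21 ± 0.0666). Notch genes had 5 rises and 1 fall among 21, with 4 of the rises turning on the spike-in scale. DNER, a Notch ligand of neurons, was at 2.78, 3.07 and 3.05 CPM in the control libraries, 4.87, 4.57 and 4.73 in those of CDK19KO-C1 and 54.3, 56.6 and 57.2 in those of CDK19KO-C2, and it was the rise that did not turn. HES1, the classical Notch target, fell (-0.81 ± 0.0812 and -0.56 ± 0.0789), with -0.64 ± 0.0676 in CDK8KO (difference -0.05 ± 0.0602, adjusted p = 0.565). NOTCH1 (0.28 and 0.31) and the ligand DLL1 (0.40 and 0.69) rose. Of 15 TGF-beta targets only ID2, an inhibitor of helix-loop-helix factors, changed in both sublines in 1 direction (-0.34 ± 0.068 and -0.97 ± 0.071), and 4 moved oppositely.

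Metabolic lists were mixed. Of 24 cholesterol synthesis genes, 6 rose in both sublines, 1 fell and 3 moved oppositely, the 6 rises lying below control with spike-in factors. SQLE, squalene epoxidase, was at 139.6, 139.8 and 136 CPM in the control libraries, 81.5, 81.3 and 76.2 in those of CDK19KO-C1 and 40.5, 38.2 and 39.9 in those of CDK19KO-C2. It was the fall, it was deeper in CDK19KO-C2 (1.01 ± 0.0561, adjusted p = 1.52e-17), and it stood at -0.12 ± 0.0433 in CDK8KO and -1.26 ± 0.0438 in DKO. INSIG1 (0.47 and 0.31), LSS (0.70 and 0.24) and, in the list of fatty acid synthesis, SREBF1 (0.69 and 0.36) were among the rises. SREBF1, a transcription factor of lipid synthesis, was the only shared change among 17 genes of that list, and on the spike-in scale it was at -1.13.

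Glycolysis and hypoxia genes split evenly, 4 up and 4 down of 29, beside 8.97% and 9.25% of all genes. The rises turned with spike-in factors. PKM, pyruvate kinase, was at 2059, 2100.4 and 2125 CPM in the control libraries, 2439.8, 2527 and 2627 in those of CDK19KO-C1 and 2980.0, 2907 and 2856 in those of CDK19KO-C2. LDHA, lactate dehydrogenase, rose by 0.36 ± 0.0433 and 0.34 ± 0.0433, and both exceeded CDK8KO (0.42 and 0.45). VEGFA, the angiogenic growth factor, was at 75.8, 83.9 and 82.9 CPM in the control libraries, 55, 52.7 and 55.6 in those of CDK19KO-C1 and 51.4, 51.5 and 52.4 in those of CDK19KO-C2, and P4HA1, a collagen prolyl hydroxylase subunit, fell (-0.28 ± 0.0762 and -0.29 ± 0.0762). In the list of mTORC1 inhibitors and AMPK, PRKAA2 and DDIT4 fell and 4 of 17 genes rose, among them STK11, the kinase that activates AMPK (0.72 ± 0.0628 and 0.48 ± 0.0632), and TSC2 (0.20 ± 0.0538 and 0.19 ± 0.0538); the rises turned with spike-in factors. Of 19 NRF2 targets and regulators, 6 fell and 1 rose, the rise turning with spike-in factors. Beside SLC7A11 the falls included NQO1 (-0.63 ± 0.044 and -0.37 ± 0.0437) and TXNRD1 (-0.46 ± 0.0585 and -0.56 ± 0.0586), with -0.59 ± 0.0372 and -0.40 ± 0.0499 in CDK8KO.

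Of 22 unfolded protein response genes, 7 fell in both sublines and none rose. HERPUD1, which helps clear misfolded proteins from the endoplasmic reticulum, was at 55.5, 56.6 and 56.3 CPM in the control libraries, 39.6, 39.8 and 38.2 in those of CDK19KO-C1 and 37.9, 35.4 and 35.7 in those of CDK19KO-C2. HYOU1, a chaperone, was at 285, 290.2 and 289.7 CPM in the control libraries, 213, 202 and 205 in those of CDK19KO-C1 and 244, 230.4 and 245 in those of CDK19KO-C2. HYOU1 was higher than control in CDK8KO (0.18 ± 0.0361) and DKO (0.49 ± 0.0364), and CDK19KO minus CDK8KO was -0.55 ± 0.0295 (adjusted p = 4.38e-18). HSPA5, the chaperone BiP (-0.30 ± 0.0439 and -0.25 ± 0.0438), and the sensor ATF6 (-0.35 ± 0.0491 and -0.24 ± 0.0488) fell as well. Of 32 autophagy and lysosome genes, 7 rose and 1 fell, the rises turning with spike-in factors. NPC2, a lysosomal cholesterol carrier, fell (-0.69 ± 0.0622 and -0.23 ± 0.0603), and ULK1, the kinase that starts autophagy (0.61 ± 0.0745 and 0.29 ± 0.076), GAA (0.34 and 0.30) and HEXA (0.39 and 0.24) rose.

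Mitochondrially encoded genes took 6.90% to 8.24% of gene counts in control, 4.97% to 6.37% in CDK19KO-C1 and 5.77% to 6.29% in CDK19KO-C2. Of 13 such genes, 5 fell in both sublines and none rose, and all 13 were lower than in CDK8KO (23.6% of all genes were). Against control 7 of them were called higher in CDK8KO and 8 lower in DKO, beside 19.5% and 32.1% of all genes. Their medians were -0.54 and -0.24 in the sublines, 0.20 in CDK8KO and -0.30 in DKO. MT-ND6, a subunit of complex I, was at 832, 679 and 703 CPM in the control libraries, 442, 316 and 286 in those of CDK19KO-C1 and 542, 535 and 666 in those of CDK19KO-C2. MT-ND5 (-0.99 ± 0.11 and -0.31 ± 0.109), MT-ATP8 (-0.69 ± 0.0934 and -0.38 ± 0.093) and MT-ND2 (-0.96 ± 0.0975 and -0.66 ± 0.097) fell, with 44.8% of MT-ND2 words found in other transcripts. Of 29 nuclear genes of oxidative phosphorylation 2 rose, 3 fell and 6 moved oppositely, beside 8.97%, 9.25% and 6.69% of all genes. COX7B (-0.43 and -0.92) and NDUFB3 (-0.30 and -0.48) were among the falls and UQCRC1 (0.36 and 0.19) among the rises, which turned with spike-in factors. Of 32 cytosolic ribosomal protein genes, 1 rose and 3 fell, beside 8.97% and 9.25% of all genes. In the direct contrast 27 were higher in CDK19KO-C1 than in CDK19KO-C2 with none lower, beside 23.8% and 24.2% of all genes. Of 25 ribosome biogenesis genes, 3 rose (turning with spike-in factors) and 4 fell; NCL, nucleolin, was at 2299.6, 2516 and 2486 CPM in the control libraries, 1532, 1495 and 1219.5 in those of CDK19KO-C1 and 1737, 1799 and 2005 in those of CDK19KO-C2.

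Some genes and lists moved in opposite directions in the sublines. Of 18 tested targets of YAP and TEAD, which respond to cell spreading, none changed in both sublines in 1 direction and 11 moved oppositely (6.69% of all genes did), lower in CDK19KO-C1 and higher in CDK19KO-C2 in each case; medians were -0.64 and 0.39, with 0.28 in CDK8KO and 1.06 in DKO. Spike-in factors shifted the changes in CDK19KO-C2 by -1.54, more than the size of that median, and moved CDK19KO-C1 minus CDK19KO-C2 by -0.22. SUSD2, a membrane protein, was at 14.9, 18.1 and 19.4 CPM in the control libraries, 2.27, 1.95 and 3.28 in those of CDK19KO-C1 and 697, 645 and 634 in those of CDK19KO-C2. NRIP1, a corepressor of nuclear receptors, was at 53.6, 46.1 and 53.1 CPM in the control libraries, 76.4, 73.3 and 66.7 in those of CDK19KO-C1 and 0.109, 0.281 and 0.108 in those of CDK19KO-C2. ANXA10, an annexin of gastric epithelium, was at 4.62, 5.32 and 4.65 CPM in the control libraries, 48.1, 47.8 and 55.2 in those of CDK19KO-C1 and 0.326, 0.337 and 0.108 in those of CDK19KO-C2. In these genes the sublines lay on opposite sides of control, with differences of -8.04 ± 0.106, 8.72 ± 0.182 and 7.58 ± 0.171 (highest adjusted p = 8.99e-30). TIMP3, an inhibitor of metalloproteinases, had a control mean of 2.5 CPM, a mean of 9.28 CPM in CDK19KO-C1 and 1 count in the CDK19KO-C2 libraries together. MSR1, the macrophage scavenger receptor, had 17 CPM in CDK19KO-C1, 3 counts over CDK19KO-C2 and 0.250 CPM in control. PRSS33, a serine protease, had 5.24 CPM in CDK19KO-C2 and no count in CDK19KO-C1.

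One further stretch of the genome differed between the sublines, found by taking medians over 10 Mb segments, without a test. Only tested genes with a mean of at least 5 CPM in control or a CDK19KO subline entered. A segment needed at least 15 of them. On chromosome 18, from 70003031 to 80033949, the 19 such genes had a median log2 change of -0.91 in CDK19KO-C1 and 0.02 in CDK19KO-C2, with -0.06 in CDK8KO and -0.20 in DKO. In CDK19KO-C1 18 of the 19 were called lower than control and in CDK19KO-C2 7 were, and 17 were lower in CDK19KO-C1 than in CDK19KO-C2. Over all genes tested these shares were 24.0%, 20.6% and 24.2%. Leaving out this segment, the first of the X chromosome and the mitochondrial genome (described above), the other 257 segments had medians of -0.28 to 0.25 in CDK19KO-C1 and -0.19 to 0.24 in CDK19KO-C2.

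Where CDK19KO was set directly against CDK8KO, 8095 genes were called (47.1%), 4031 higher and 4064 lower. Of the 3134 genes changed in both CDK19KO sublines, 1834 (10.7% of the genes tested) differed from CDK8KO in the same direction, 901 higher (5.24%) and 933 lower (5.43%). Among the 15 leading rises and 15 leading falls this difference was largest in PODXL2, COL17A1, SLC1A3, TESC and SEMA3A, at 4.80, 3.76, -3.67, -2.62 and 2.48. Genes described above for which no difference from CDK8KO was called include CRY1, DPP4, INSIG1, SREBF1, HES1 and NFKBIA, with differences of -0.03 ± 0.0462, 0.01 ± 0.132, -0.01 ± 0.0353, 0.04 ± 0.0444, -0.05 ± 0.0602 and 0.05 ± 0.0453. The median of this contrast moved by -0.43 with spike-in factors, which gave 421 higher and 12156 lower.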

How the data were processed

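Whole-gene RNA read counts of 26 libraries were deposited by the authors as 1 table of raw counts; per the submitters' processing notes, STAR 2.5.2, featureCounts of Subread 1.6.3 and hg38 were used, while the sources used here do not give strand, annotation release or library preparation. Columns were matched to samples by name, 22 to 1 sample and 4 (of DKO) to a group only. Spike-in rows were kept out of library sizes and tests.

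Counts of 17198 genes passing filterByExpr of edgeR 4.0.16 (R 4.3.3; minimum count 10, minimum total 15) were fitted in 9 groups with TMM factors and the quasi-likelihood method, and p-values were adjusted by Benjamini-Hochberg. The mean of the sublines weighs each equally. A gene is called at an adjusted p under 0.05, and errors of log2 fold changes are standard errors. The method was tested on simulated data. Alternatives were DESeq2 1.42.0, other filters and factors, a 1.5-fold minimum, a replicate block and leaving out libraries.

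The 44 gene lists and the rule for names were chosen with earlier results of these data known. The rule names the kinase module and 15 rises and 15 falls called in both sublines and in the mean with at least 5 CPM in 1 group and no overlap with control, ranked by the smaller subline change. It also names 6 opposite genes and, by the same ranking and CPM minimum, up to 4 genes per list called in both sublines in 1 direction. Those list genes may overlap control. Antisense, uncharacterised and clone-named genes were passed over, and some genes the rule picks are not reported here. Genes named outside it (ATF3, ATF4, ATF5, GDF15, CTH, PPP1R15A, SHMT1, SLC1A1, CARS, IARS, MARS, NARS, TARS, SLC3A2, SLC7A1, SLC38A1, CDK2, TWIST1 and the genes of pseudoautosomal region 1 other than PLCXD1, DHRSX and PPP2R3B) were chosen after their values were seen.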

Additional observations from a re-analysis of the deposited data

Results flagged for a closer look

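In 6 genes the CDK19KO sublines moved in opposite directions from control and the difference between them was tested. The log2 change in CDK19KO-C1 minus that in CDK19KO-C2 was 8.72 for NRIP1, 7.58 for ANXA10 and -8.04 for SUSD2. PRSS33 had a mean of 5.24 CPM in CDK19KO-C2 and 0 counts in CDK19KO-C1. TIMP3 had a mean of 9.28 CPM in CDK19KO-C1 and 1 count in CDK19KO-C2, and MSR1 a mean of 17 CPM in CDK19KO-C1 and 3 counts in CDK19KO-C2. The highest adjusted p among the 6 differences was 5.7e-16 in edgeR's quasi-likelihood test. CDK19 itself also differed between the sublines, by -0.43 (adjusted p = 2.67e-05). Spike-ins, which the labels of the single knockouts do not mention, took a mean of 3.57% of counts in CDK19KO, above the 1.04% to 1.24% of control, and entered no main test.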

How the results depend on the processing

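Replacing TMM by spike-in factors gave 16855 genes called in the mean of the sublines against control, 16332 in both sublines, 5209 between the sublines and 12577 against CDK8KO. Requiring a change beyond 1.5-fold left 495, 179, 1185 and 769. Leaving out 1 library at a time gave 6235 to 7340, 2694 to 2940, 7223 to 8026 and 7505 to 8028. DESeq2 called 2853 genes in both sublines, of which 2800 were among the 3134 reported. To look for pairing, the mean of its own group was subtracted from each library's log2 CPM, and these deviations were correlated between groups. For same-numbered libraries the correlations of the deviations were -0.048 to 0.082, and for different-numbered ones -0.073 to 0.058. These ranges overlap, so they do not settle whether the replicate numbers pair the samples. With a replicate block, which only numbered libraries can enter, 7771, 3350, 8656 and 8449 genes were called, against 7837, 3395, 8711 and 8496 in the same libraries without it. The cause of these shifts was not tested.

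With spike-in factors, the mean log2 change against control of 88 genes named in the text changed sign. The smallest resulting changes were PLCXD1 at -0.016, SEMA3C at -0.21, DHRSX at -0.25, PPP2R3B at -0.25, CRY1 at -0.26, CDKN1A at -0.28, TNFAIP3 at -0.28, PRSS33 at -0.29, SAMD5 at -0.30, WNT3A at -0.38, SUSD2 at -0.44, HES2 at -0.46, TNFRSF10C at -0.48, CAMK2D at -0.49 and KLF4 at -0.50. Below these came SERPINB5 at -0.51, PHLDA3 at -0.55, ZBED1 at -0.55, AKAP17A at -0.58, DKK1 at -0.58, TNFSF9 at -0.60, SLC25A6 at -0.61, LAMA3 at -0.66, AREG at -0.66, ASMTL at -0.71, SLC1A1 at -0.74, NR4A2 at -0.76, SAMD9 at -0.77, SEMA3F at -0.79, ZMAT3 at -0.82, TNFRSF10D at -0.85, GTPBP6 at -0.91, BAD at -0.95 and NLRC5 at -0.99. The next were PHLDA1 at -1.01, CD99P1 at -1.02, EPHB3 at -1.04, NFKBIE at -1.04, STK11 at -1.05, IFIH1 at -1.05, CDKN2D at -1.09, AGRN at -1.10, DLL1 at -1.11, BMP4 at -1.12, TAP1 at -1.12, USP18 at -1.13, SREBF1 at -1.13, RELB at -1.13, IER5 at -1.13, NFKBIA at -1.15, LSS at -1.18, MED25 at -1.19, NR4A1 at -1.19, EMP1 at -1.19 and ULK1 at -1.19. Slightly lower were PLXNA1 at -1.21, E2F1 at -1.23, HERC6 at -1.25, INSIG1 at -1.26, PKM at -1.28 and EREG at -1.29. Lower again were LDHA at -1.30, HLA-E at -1.30, KRT8 at -1.30, KRT19 at -1.31, ETV4 at -1.33, PPP1R15A at -1.33, HEXA at -1.33, MCM7 at -1.33, GAA at -1.34, SHMT1 at -1.34, NOTCH1 at -1.35, KLF5 at -1.36, UQCRC1 at -1.38, CD99 at -1.38 and TYMS at -1.38. The lowest were CDK2 at -1.40, ERBB2 at -1.42, MED15 at -1.42, ZNRF3 at -1.42, TSC2 at -1.45, GDF15 at -1.51, CDK8 at -1.51, CCNC at -1.52, MED13 at -1.59, ATF5 at -1.60, CTH at -1.62 and ATF3 at -1.64. Over the fits that leave out 1 library, the mean change of ATF3, whose sublines moved oppositely, ran from -0.068 to 0.0862 and that of CTH, likewise, from -0.00882 to 0.0575.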
